A study of Mus musculus with 30 samples.

Results

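The genes described here are 10 members of the AP-1 and immediate early group, namely Fos, Fosb, Fosl1, Fosl2, Jun, Junb, Jund, Egr1, Atf3 and Ier2. They were taken by symbol from the 20321 genes of the expression tables, and all 10 passed the filter on low counts that kept 13793 genes. The members were chosen on earlier results of these libraries, among them the lower Fosb at 24 h than at 0 h. Differences from 0 h are therefore a description: the fit's calls are counted beside the share of all genes called, and nothing is read from them. The comparisons among other times left out 0 h and 24 h, but they come from the same libraries and are not independent of what was known.

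The libraries are polyadenylated RNA from the third hindlimb digit of adult male C57Bl/6 mice, 9 to 10 weeks old, in which the distal phalanx (P3), the bone of the digit tip, had been amputated. At most 33% of the bone was removed, an injury from which a mouse digit tip regenerates. Digits were collected at 0, 3, 6, 12 and 24 h and at 3, 7, 14 and 21 d, with 3 libraries at each time and 6 at 7 d, 30 in all. Every group was amputated, so 0 h is the earliest amputated digit and not an unoperated one. All digits were right-foot except 3 of the 6 at 7 d. The sample titles carry dates that fall into an earlier period (July and August, 16 libraries) and a later one (the following November to January, 14 libraries), and what the date marks is not given in the sources used here. The 3 h and 12 h libraries were all of the earlier period and the 21 d libraries all of the later one. Total expected counts per library ran from 3167625 to 16277816, with a median of 5083495 in the earlier period and 9836295 in the later. Levels are given as CPM, the count of a gene divided by the library total after scaling by the trimmed mean of M-values, and levels of different genes are compared only as TPM, transcript numbers scaled to a fixed total per library, which take gene length into account.

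AP-1 is a dimer of basic leucine zipper proteins. A Fos protein pairs with a Jun protein, Jun proteins also pair with each other, and the dimer binds short palindromic sites near genes of proliferation, migration and matrix turnover. Most of these genes are immediate early genes, whose transcription starts within minutes of serum, growth factor or wounding, without new protein synthesis, and whose RNA is short-lived. In skin wounds they are among the first genes transcribed at the wound edge.

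The markers of the labelled tissue were present. All 6 keratinocyte markers were counted in every library and summed to between 31460 and 99080 CPM, and of the 6 osteoblast markers 4 were counted in all, while Bglap and Bglap2 were each at 0 in 5 libraries. The 4 skeletal muscle markers were low, with a sum of 0 to 39.1 CPM and a median of 2.20. Ckm was at 0 in 26 libraries, Myh4 in 23, Ttn in 14 and Acta1 in 9, and Acta1 reached 26.0 CPM. The highest sum was that of a 0 h library.

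The promoters of Fos, Fosb and Jun are shown because these 3 genes of the Fos and Jun families lay below 0 h at most later times and, in every library of 21 d, above those of 14 d. Each line gives the 150 bases before the RefSeq start site on GRCm38.p6, 5′ to 3′ on the strand of the gene. Fos lies on the plus strand (chr12:85473740-85473889), Fosb on the minus strand (chr7:19310046-19310195) and Jun on the minus strand (chr4:95052223-95052372). Capitals mark the core of the cyclic AMP response element (TGACG), the TATA box (TATAAA), a site of the EGR type (GCGGGGGCG) and the AP-1 site of the Jun type (TGACATCA).
Fos: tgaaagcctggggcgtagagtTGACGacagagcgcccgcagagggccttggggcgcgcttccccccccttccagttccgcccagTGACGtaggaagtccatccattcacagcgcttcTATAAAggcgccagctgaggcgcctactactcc
Fosb: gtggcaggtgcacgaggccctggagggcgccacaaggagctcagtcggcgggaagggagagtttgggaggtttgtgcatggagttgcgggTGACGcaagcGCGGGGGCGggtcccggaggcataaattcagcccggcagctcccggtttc
Jun: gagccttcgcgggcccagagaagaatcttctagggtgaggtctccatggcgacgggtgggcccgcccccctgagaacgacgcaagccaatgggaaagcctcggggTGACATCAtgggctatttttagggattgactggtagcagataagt

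The promoter table held 7 of the 10 members (all but Fosl1, Egr1 and Ier2), with 250 bases before and 50 after the start. The RefSeq start of Jund lies upstream of its GENCODE gene. The sequences were searched on both strands. TGACG occurred in 4 of the 7, Atf3, Fos, Fosb and Junb, against 20.9% of 32544 promoters of the same length. The Jun-type site TGACATCA occurred in Jun alone of the 7, against 3.37% of all promoters, and the EGR site (GCGTGGGCG or GCGGGGGCG) in Fosb and Fosl2, against 3.5%. No member window held the full cyclic AMP response element TGACGTCA (1.8% of all promoters), the AP-1 site TGACTCA or TGAGTCA (5.19%) or a CArG box, the binding site of serum response factor (1.64%). TGACG is part of TGACGTCA, and these matches describe letters in a window only.

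At 0 h the members other than Fosl1 and Atf3 were abundant. In TPM, Fos had the highest mean of the 10 at 612.2 ± 200.2 (SD, n = 3), followed by Jun at 219.9 ± 26.9, Egr1 at 207.6 ± 22.9, Ier2 at 197.1 ± 30.5 and Fosb at 170.7 ± 78. Jun, Egr1, Ier2 and Fosb are neighbours in that order that differed by less than their spread. Fosl1, at 7.11 ± 8.65 TPM, was the lowest member at 0 h. Summed over the 10 members, the level was 1975 to 2486 CPM at 0 h and lay below that range at every later time shown here, with 841.4 to 1529 at 3 h, 635.6 to 807.4 at 24 h, 572.2 to 1180 at 7 d, 747.3 to 861.2 at 14 d and 1147 to 1823 at 21 d.

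**Figure D1:**
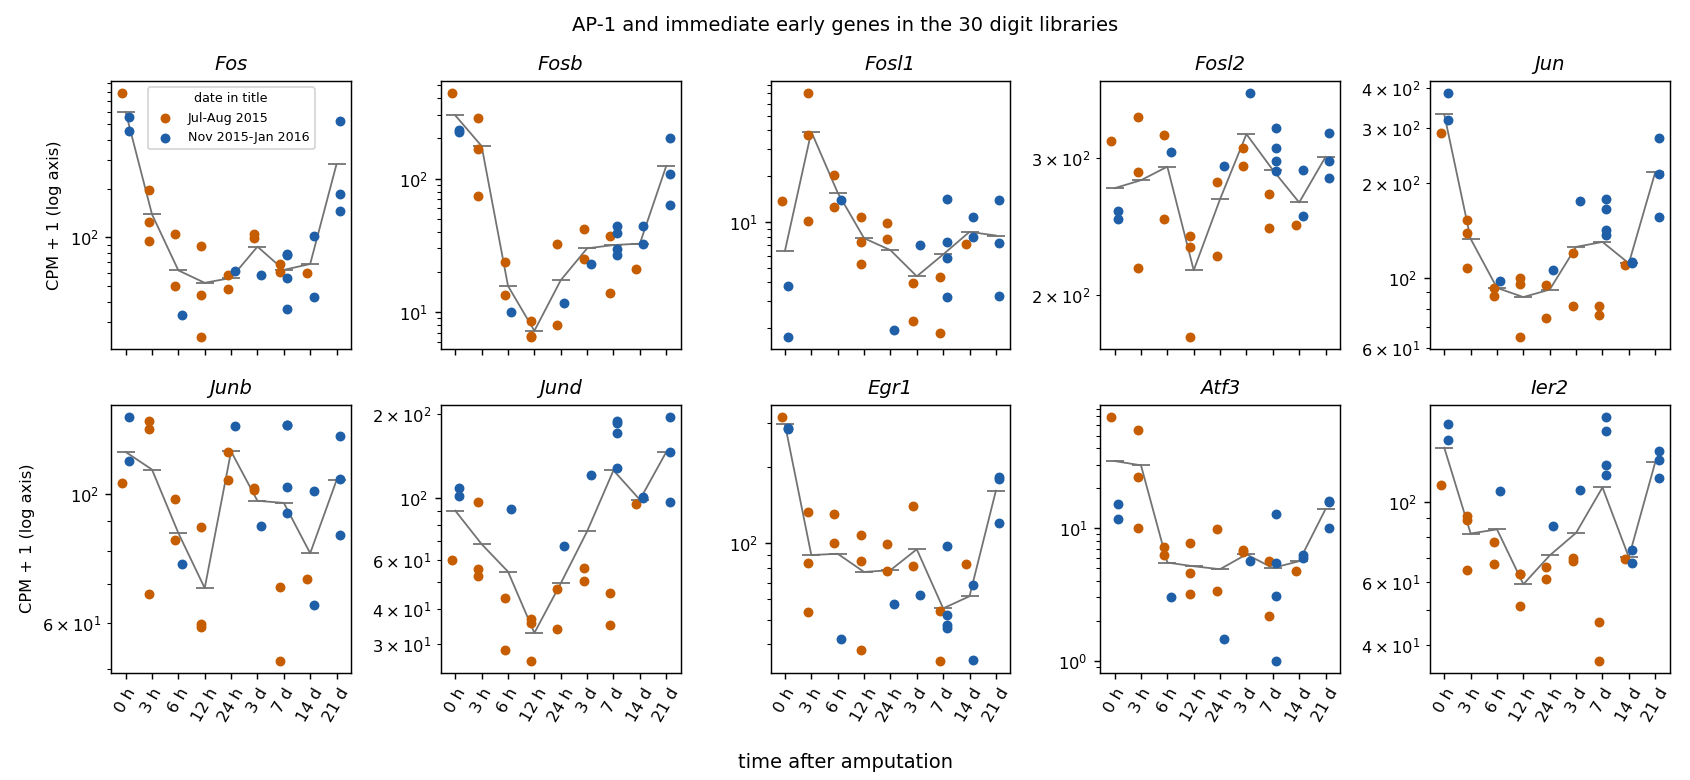
Level of each member in the 30 libraries, as CPM + 1 on a log axis whose range differs between panels, against time after amputation. Each point is a library, coloured by the period of the date in its title, and the grey line joins the group means. Fos, Fosb, Jun and Egr1 were high at 0 h and low from 6 h to 14 d. At 21 d Fos, Fosb and Egr1 were higher than at 7 d, whereas the Jun libraries of these times overlapped. Fosl1 was highest at 3 h, and Fosl2 stayed between 176 and 362 CPM.

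Fos, the partner of Jun in the best known AP-1 dimer, was measured at 556, 455 and 780 CPM in the 0 h libraries. It was at 93.4, 197 and 124 CPM at 3 h, at 49.0, 32.0 and 103 CPM at 6 h and at 23.2, 87.7 and 43.1 CPM at 12 h. At 24 h it was at 57.2, 46.9 and 61.2 CPM. None of these later libraries reached the lowest 0 h library. At 3 d it was at 57.9, 98.4 and 104 CPM, at 7 d from 35.1 to 77.4 with a median of 63.7 over 6 libraries, and at 14 d at 59.2, 41.8 and 101 CPM. At 21 d the 3 libraries read 521, 185 and 144 CPM, so that 1 of them lay within the range of 0 h. The log2 difference from 0 h was -2.11 ± 0.47 (SE) at 3 h, -3.54 ± 0.50 at 12 h and -1.08 ± 0.46 at 21 d. Bulk RNA cannot tell fewer expressing cells from less RNA in each cell.

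Fosb, a Fos family protein with a short splice form that lacks the activation domain, had the deepest trough of the 10. It was at 231, 223 and 435 CPM at 0 h and at 73.0, 284 and 165 CPM at 3 h, so the first hours overlapped. At 6 h it was at 12.5, 9.02 and 22.5 CPM, and at 12 h at 7.58, 5.62 and 5.50 CPM. It then lay at 31.2, 7.06 and 10.8 CPM at 24 h, at 21.8, 41.1 and 24.0 CPM at 3 d and between 12.8 and 43.0 CPM at 7 d. The 14 d libraries read 19.9, 31.3 and 43.4 CPM and the 21 d libraries 199, 62.6 and 108 CPM. The log2 difference from 0 h went from -0.77 ± 0.49 at 3 h to -5.56 ± 0.61 at 12 h and was -1.27 ± 0.49 at 21 d.

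Fosl1 (Fra-1, chr19:5447547-5455946, GRCm38), a Fos family member without an activation domain that is itself induced through AP-1, had another course. It was at 2.80, 0.746 and 12.8 CPM at 0 h, at 9.17, 69.3 and 36.1 CPM at 3 h and at 19.3, 12.9 and 11.5 CPM at 6 h. Its highest library was at 3 h, and 2 of the 3 libraries there lay above all 0 h libraries. The log2 difference from 0 h was 2.85 ± 0.86 at 3 h, the only one above 2 of any member, and this gene was not called. Without 1 library the value ran from 2.07 to 4.39. All 3 h libraries were of the earlier period, and against the single 0 h library of that period the difference was 1.1 on the log2(CPM + 1) scale, against 2.73 with both periods pooled. Counts were shallow, from 4 to 310 per library. In the GENCODE annotation 51.2% of the 65-base stretches of its exons overlap Ccdc85b on the other strand, and whether counting used strand is not given in the sources used here.

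Fosl2 (Fra-2, chr5:32135801-32157842), the fourth Fos gene, moved little. Its libraries lay between 176 and 362 CPM at all times, and its log2 differences from 0 h ran from -0.35 ± 0.18 at 12 h to 0.23 ± 0.18 at 3 d. The lowest single value, 176 CPM, was at 12 h, where its 3 libraries (238, 230 and 176 CPM) lay just below the 0 h libraries (256, 250 and 314 CPM).

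Jun, the Jun protein with the strongest activation domain, was at 316, 385 and 288 CPM at 0 h and at 106, 138 and 152 CPM at 3 h. It lay at 92.0, 97.1 and 86.9 CPM at 6 h, at 64.0, 99.0 and 95.0 CPM at 12 h and at 93.9, 73.9 and 105 CPM at 24 h. Its libraries ran from 80.2 to 174.3 CPM at 3 d, from 75.4 to 176.5 at 7 d and from 109.3 to 111.2 at 14 d. At 21 d it was at 213, 156 and 277 CPM, which overlapped 7 d and was still below every 0 h library. The log2 difference from 0 h was -1.94 ± 0.29 at 12 h and -0.61 ± 0.28 at 21 d.

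Junb (chr8:84974484-84978718), which activates AP-1 sites more weakly than Jun, and Jund (chr8:70698949-70700616), the Jun gene least dependent on a stimulus, were less far from 0 h. Junb was at 135, 113 and 104 CPM at 0 h, at 58.8, 87.0 and 58.0 CPM at 12 h and at 117, 105 and 130 CPM at 24 h. Its largest log2 difference from 0 h was -0.79 ± 0.28 at 12 h. Jund was at 101, 107 and 59.0 CPM at 0 h, at 34.7, 35.9 and 25.2 CPM at 12 h and at 145, 95.4 and 194 CPM at 21 d. Its log2 difference from 0 h was -1.48 ± 0.50 at 12 h and 0.70 ± 0.48 at 21 d. Against the single 0 h library of the earlier period, the 12 h difference was -0.88 on the log2(CPM + 1) scale. With both periods pooled it was -1.42 on that scale. The 21 d difference was 0.42 within the later period and 0.68 pooled. For Jund, 46.9% of exon stretches overlap the predicted gene Gm11175 on the other strand, against 5.38% for Jun (Junos) and 5.15% for Junb (Prdx2).

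Egr1 is a zinc finger factor, not an AP-1 subunit, and is induced by the same serum response factor pathway as Fos. It was at 285, 283 and 315 CPM at 0 h and at 82.6, 131 and 52.8 CPM at 3 h. At 7 d its 6 libraries ran from 33.4 to 96.5 CPM with a median of 48.8. At 21 d it was at 182, 120 and 179 CPM. The 0 h libraries lay above those of every later time.

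Atf3 (chr1:191170296-191218039), a stress-induced factor that pairs with Jun proteins, was at 14.3, 10.7 and 68.3 CPM at 0 h, a range in which 1 library stood above the other two. At 3 h it was at 8.97, 54.3 and 23.1 CPM and at 6 h at 6.18, 2.03 and 5.29 CPM. Its counts were as shallow as those of Fosl1, from 0 to 427 per library. A single 7 d library had no count, which allows up to 0.554 CPM (3 counts, counting error only). Ier2 (chr8:84661331-84662852), a short nuclear protein of the serum response, was at 163, 148 and 110 CPM at 0 h, at 50.3, 62.0 and 61.8 CPM at 12 h and at 130, 116 and 138 CPM at 21 d.

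**Figure D2:**
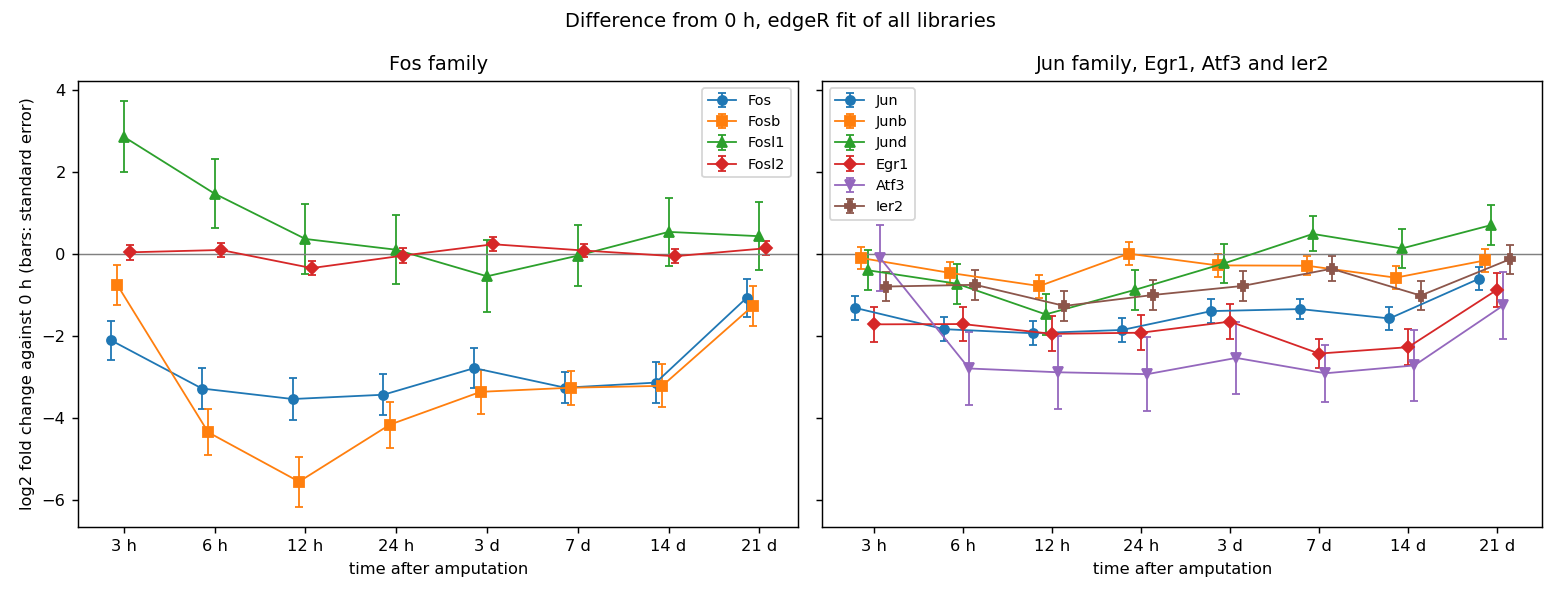
Log2 fold change of each member against 0 h (vertical axis, bars show the standard error) by time after amputation, from the edgeR fit of all 30 libraries, with Fos genes in the left panel. Fosb reached -5.56 at 12 h and Fos -3.54, while Fosl2 stayed within 0.35 of 0 and Fosl1 stood at 2.85 at 3 h.

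Calls against 0 h are given only as counts, since the members were chosen with differences from 0 h known and the calls restate that choice. The members with an adjusted p under 0.05 in edgeR were all lower than at 0 h. They were Fos and Jun at 3 h (0.254% of all genes tested were called there), and Fos, Fosb and Jun at 6 h (0.189% of all genes), 12 h (0.167%) and 3 d (0.551%). They were Fos, Fosb, Jun and Egr1 at 24 h (0.493%) and 14 d (1.61%), and the same 4 with Atf3 at 7 d (2.34%). At 21 d edgeR called none (1.94% of all genes), although 4 members had an unadjusted p under 0.05, and DESeq2 and limma also called 0. Atf3 at 7 d was not called without 0 h replicate 3 (log2 difference -1.58 in place of -2.92) or without the left-foot libraries (-2.35). Egr1 at 24 h was not called without any 1 of the 3 libraries of 0 h or of 24 h. The 3 h count was 0 without any 1 of 0 h replicates 1 and 2, 3 h replicates 1, 2 and 3 or 7 d replicate 6. Over the 8 settings that kept single libraries in, Fos at 3 h was called in 8, Jun in 7 and Egr1 in 2. All 3 h libraries were of the earlier period. The members lying wholly below the 0 h libraries numbered 4 at 3 h, 7 at 6 h, 9 at 12 h, 6 at 24 h, 7 at 3 d, 4 at 7 d, 7 at 14 d and 3 at 21 d, where between 3.44% and 11.8% of all genes did so. No member lay wholly above them at any time. The comparisons share the same 3 libraries of 0 h, of which 1 is of the earlier period.

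Sums of blood and epidermis markers are given beside the 0 h values, for 24 h as the later time. The 5 erythroid markers summed to 66.3 to 476 CPM at 0 h and to 38.4 to 79.9 at 24 h, and the 6 keratinocyte markers to 67810 to 69360 CPM at 0 h and 40790 to 58400 at 24 h. The erythroid sums overlapped and the keratinocyte sums did not. Their part in the differences was not tested.

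The make-up of each family, read on the TPM scale, differed between times. The 4 Fos genes summed to 889.8 ± 303.4 TPM (SD, n = 3) at 0 h, 158.7 ± 52.1 at 12 h and 438.2 ± 208.8 at 21 d. Fos made up 69.0 ± 1.99% of this sum at 0 h, 30.4 ± 11.3% at 6 h, 34.7 ± 14.0% at 12 h and 56.6 ± 12.8% at 21 d. Fosl2, the steady member, made up 11.6 ± 1.78% at 0 h, 56.8 ± 14.2% at 12 h and 26.9 ± 11.8% at 21 d. Fosb held 24.0 ± 6.56% at 3 h and 2.65 ± 0.954% at 12 h. Fosl1 held 0.653 ± 0.645% at 0 h and 11.0 ± 5.67% at 3 h. The 3 Jun genes summed to 421.8 ± 40.8 TPM at 0 h and 178.6 ± 41.2 at 12 h. Jun held 52.2 ± 3.94% of that sum at 0 h and 26.0 ± 0.831% at 24 h, and Junb 32.5 ± 3.86% and 58.9 ± 3.22% at the same times. Shares of 1 sum are not independent of each other, and no test was run on them.

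**Figure D3:**
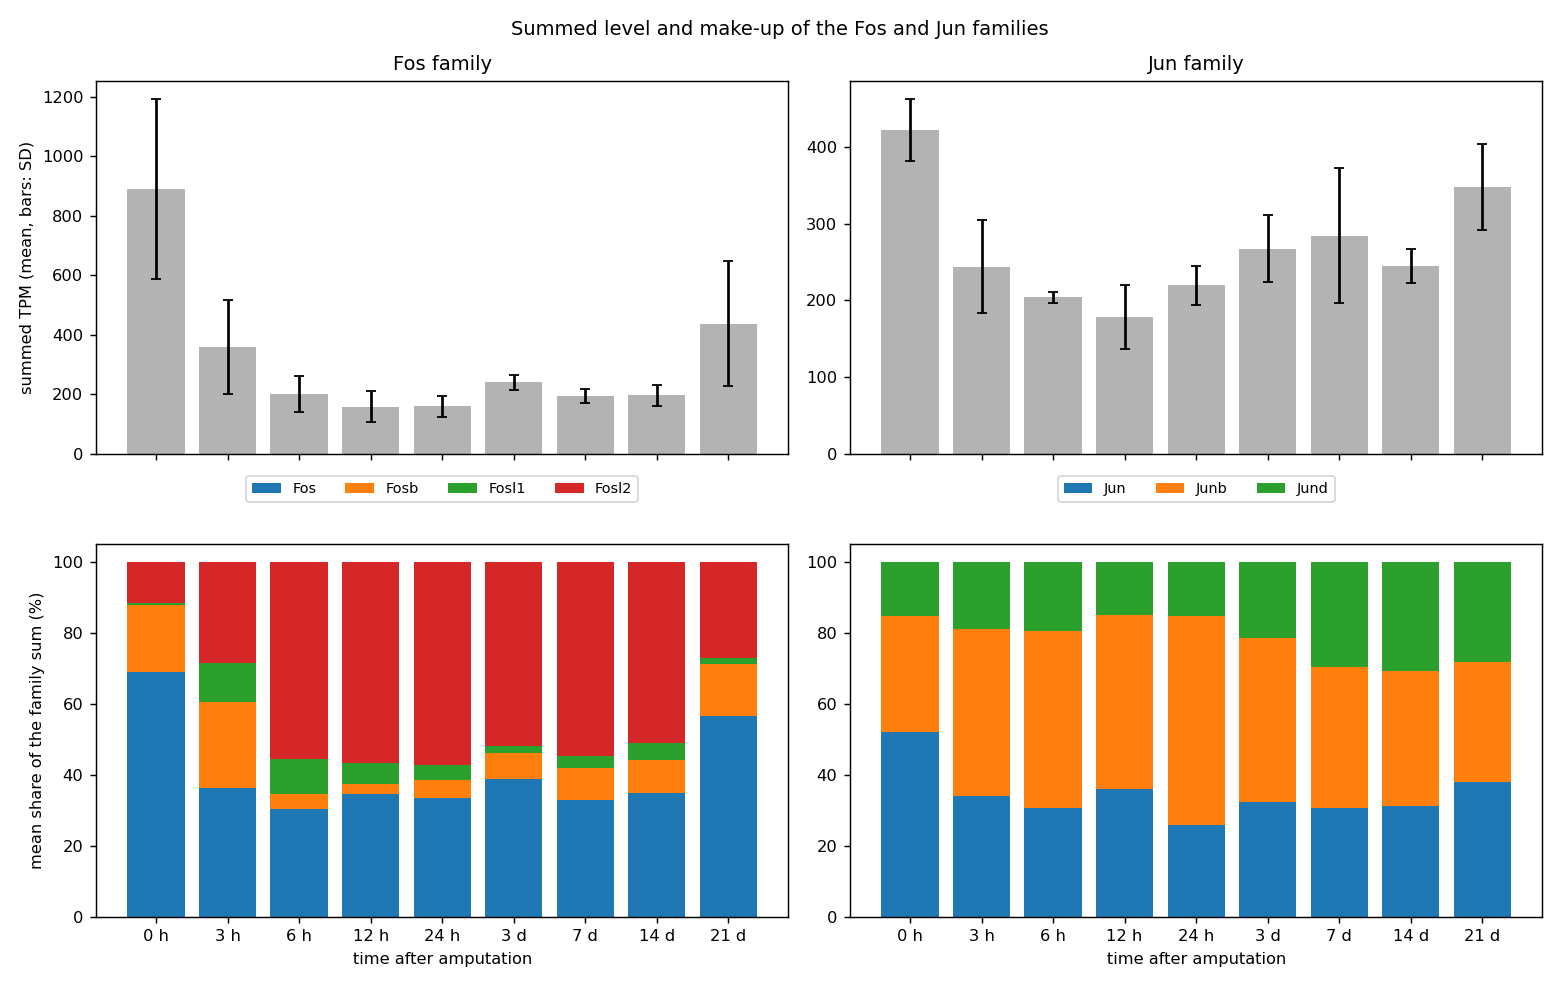
Summed TPM of the Fos and Jun genes (upper panels, bars show the mean and whiskers the SD over libraries) and the mean share of each gene in its family sum in percent (lower panels) by time after amputation. Fos made up 69.0% of the Fos family at 0 h and 34.7% at 12 h, when Fosl2 made up 56.8%.

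Change was tested across 3, 6 and 12 h and 3, 7, 14 and 21 d, leaving out 0 h and 24 h. In this edgeR F-test 6 of the 10 members changed, against 9.21% of all genes tested. They were Fosb (adjusted p = 8.73e-07), Fos (0.000699), Jun (0.0195), Fosl1 (0.0235), Jund (0.0271) and Atf3 (0.0363). Egr1 (adjusted p = 0.0571), Ier2, Fosl2 and Junb did not pass. Fos and Fosb stayed called without any 1 library and under all other settings tried. Fosl1 lost its call without 3 h replicate 2 (adjusted p = 0.257) or 3 (0.0731), Jun without 21 d replicate 1 (0.0641) or 3 (0.129), and Jund without any of the 12 h libraries (0.0558 to 0.0835). Atf3 lost it without any 1 of 13 libraries, with an adjusted p of up to 0.322 without 3 h replicate 2. With the title period as a covariate, Jund (0.0867) and Fosl1 (0.0685) were not called and Egr1 was (0.0181).

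The early decline was tested between 3 h and 12 h, whose libraries were all of the earlier period. Fosb fell by 4.79 on the log2 scale (SE 0.59, edgeR adjusted p = 9.91e-05), and its 12 h libraries all lay below those of 3 h. It was the only member called, against 0.616% of all genes, and it stayed called without any 1 library. The other members had log2 differences from -2.79 ± 0.89 (Atf3) and -2.49 ± 0.85 (Fosl1) through -1.43 ± 0.47 (Fos) to -0.23 ± 0.42 (Egr1). The 12 h libraries lay wholly below the 3 h ones for 6 members, Fos, Fosb, Jun, Jund, Atf3 and Ier2, and for 9.13% of all genes. The keratinocyte markers summed to 46300 to 99080 CPM at 3 h and 44440 to 58440 at 12 h, and the osteoblast markers to 2305 to 3385 and 1353 to 2190 CPM, and their part was not tested.

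The late course was tested between 7 d and 21 d. Fos rose by a log2 fold change of 2.19 (SE 0.38, edgeR adjusted p = 0.00194), Fosb by 2.0 (SE 0.41, adjusted p = 0.00757) and Egr1 by 1.56 (SE 0.35, adjusted p = 0.0156), so 3 of 10 members were called, against 1.46% of all genes. For these 3 every 21 d library lay above every 7 d library, which held for 4.03% of all genes. Jun (0.74 ± 0.24) and Atf3 (1.66 ± 0.70) were not called, and Fosl2 (0.06 ± 0.15), Junb (0.13 ± 0.24), Jund (0.21 ± 0.41) and Ier2 (0.23 ± 0.31) lay near 0. The 3 calls rested on 21 d replicate 1, the library with 521 CPM of Fos. Without it none of the 3 passed, with log2 fold changes of 1.38 for Fos (adjusted p = 0.153), 1.45 for Fosb (0.238) and 1.43 for Egr1 (0.153). Egr1 also lost its call without 21 d replicate 3 (1.44, adjusted p = 0.0692). Fosb and Egr1 lost it without the left-foot libraries (adjusted p = 0.0573 and 0.138).

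Dates and markers also differed between 7 d and 21 d. The 21 d libraries were all of the later period and the 7 d libraries were 2 of the earlier and 4 of the later. Within the later period the difference on the log2(CPM + 1) scale was 2.03 for Fos, 1.70 for Fosb and 1.45 for Egr1, against 1.99, 1.90 and 1.60 with both periods pooled. Of the 6 osteoblast markers 4 were higher at 21 d than at 7 d by the same test, which called 1.46% of all genes. The sum of the 6 osteoblast markers was 4738 to 7308 CPM at 7 d and 15490 to 24220 at 21 d. At 14 d it was 17360 to 20850 CPM. Fos was at 41.8 to 101 CPM at 14 d and at 144 to 521 CPM at 21 d. Of the 4 fibroblast markers Lum was higher at 21 d (1.77 ± 0.35), and their sums did not overlap, at 5170 to 7563 CPM at 7 d and 9008 to 18620 at 21 d. Of the 5 macrophage markers tested Csf1r was lower at 21 d (-1.83 ± 0.47). Of the 4 osteoclast markers tested 2 were lower at 21 d, with sums of 719.4 to 2095 CPM at 7 d and 196.1 to 552.4 at 21 d, and Calcr was at 0 in 20 libraries. The keratinocyte sums overlapped, at 38020 to 67960 CPM at 7 d and 31460 to 62790 at 21 d. The part of cell make-up in the rise was not tested.

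**Figure D4:**
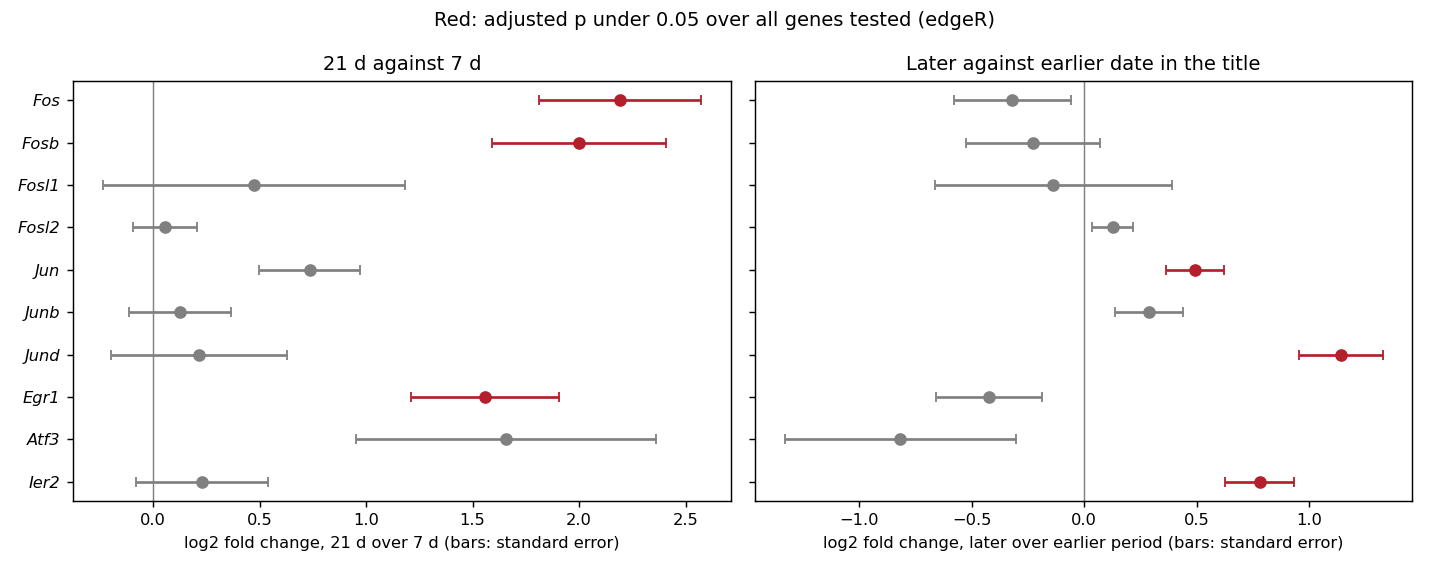
Log2 fold change of each member at 21 d against 7 d (left) and between later and earlier dates in the title at a given time (right), with bars for the standard error and red for an adjusted p under 0.05 in edgeR. Fos, Fosb and Egr1 were higher at 21 d, and Jund, Ier2 and Jun were higher in the libraries of the later period.

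The early times (3, 6 and 12 h) were also compared with the late times (7, 14 and 21 d). Fosb (log2 difference -0.97 ± 0.29, edgeR adjusted p = 0.0212), Jun (-0.52 ± 0.16, 0.0249) and Jund (-1.31 ± 0.28, 0.00158) were lower at the early times, 3 of 10 members against 15.3% of all genes. Fosl1 lay in the other direction (1.25 ± 0.45, edgeR adjusted p = 0.06) and was not called. Most early libraries were of the earlier period (8 of 9) and most late ones of the later period (9 of 12). With the period as a covariate, Fosb stayed called (-1.15, adjusted p = 0.0335), whereas Jun (-0.18, 0.523) and Jund (-0.56, 0.087) did not. Within the earlier period the difference on the log2(CPM + 1) scale was 0.36 for Fosb, 0.21 for Jun and -0.31 for Jund, and within the later period, with a single early library, it was -2.37, -0.70 and -0.62. The Fosb difference was therefore of opposite sign in the 2 periods, but these did not compare the same times. The earlier period held no 21 d library, and the early library of the later period was of 6 h. Whether the difference depends on the period cannot be told from these values. Fosb also lost its call without 14 d replicate 3 (adjusted p = 0.0537) or 21 d replicate 1 (0.0642), and Jun without 12 h replicate 1 (0.0564) or 21 d replicate 3 (0.0587).

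The title period itself was tested as a term beside time, a test added after the data were seen. Jund was higher in the later period by 1.14 ± 0.19 on the log2 scale (edgeR adjusted p = 3.01e-05), Ier2 by 0.78 ± 0.15 (0.000315) and Jun by 0.49 ± 0.13 (0.00562). The other 7 members were not called, and 24.1% of all genes were. At 14 d the periods lay close together. At every other time with libraries of both periods, the later libraries lay above the earlier ones for Jund, Ier2 and Jun. Except at 7 d, a single library stood for the earlier or the later period. At 0 h Jund was at 59.0 CPM in the earlier library and at 101 and 107 CPM in the later ones. Ier2 was there at 110 CPM against 163 and 148 CPM. At 3 d Jund was at 49.7 and 55.4 CPM against 120 CPM, and Ier2 at 67.3 and 68.7 against 107 CPM. At 7 d Jund was at 44.8 and 34.2 CPM in the earlier libraries and at 127, 184, 187 and 169 CPM in the later ones. Ier2 was at 45.3 and 35.3 CPM against 126, 118, 156 and 171 CPM, and Jun at 80.5 and 75.4 CPM against 176, 142, 165 and 136 CPM, without overlap. Both earlier 7 d libraries were right-foot and 3 of the 4 later ones left-foot, and the right-foot later library read 187 CPM for Jund, 156 for Ier2 and 165 for Jun. At 14 d the single earlier library read 94.3 CPM for Jund, 109 for Jun and 68.5 for Ier2, and the later ones 99.5 and 98.6, 110 and 111, and 66.6 and 72.2 CPM. Depth also differed between the periods, and its part was not tested.

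Among the wider immediate early genes, 40 were listed and tested. Of these 8 changed across the times other than 0 h and 24 h, against 9.21% of all genes. Between early and late times 4 of the 40 were called, a share no higher than the 15.3% of all genes. Nfkbiz (0.78 ± 0.15), Myc (0.50 ± 0.14) and Plk2 (0.42 ± 0.11) were higher at the early times and Cyr61 (-1.31 ± 0.22), a secreted matrix protein, was lower. These values are from the fit without the title period, in which early and late libraries differed as given above. The part of the period was not examined for the genes of this list or of the lists below. Between 7 d and 21 d 3 of the 40 rose, named after their values were seen: Dusp1, a phosphatase that switches off MAP kinases (1.49 ± 0.28, edgeR adjusted p = 0.00298), Cyr61 (1.44 ± 0.32, 0.0135) and Rhob (0.76 ± 0.19, 0.0345). Of all genes 1.46% were called in that comparison. The median of the 40 was 0.08 there, against 0.00 over all genes. Between 3 h and 12 h 2 of the 40 fell, Nfkbia (-1.41 ± 0.29) and Maff (-1.27 ± 0.29), against 0.616% of all genes called. The median of the 40 was -0.61 for these times, against 0.01 over all genes.

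Dusp1 was also the gene most like Fos. Over the 30 libraries and 10847 genes compared on the log2(CPM + 1) scale, Pearson's r with Fos was 0.851 for Dusp1, 0.672 for Smg6, 0.666 for Zfp36, 0.611 for App and 0.61 for AI661453. Fosb had an r of 0.839 with Fos, and Fosl1 one of 0.022. The genes most like Fosl1 were Atf4 (0.802), Bnc1 (0.77), Trim16 (0.769), Abcf2 (0.754) and Nup153 (0.742). The 30 libraries include those of 0 h and 24 h, whose results were known when the members were chosen. The part of the high 0 h values of Fos in r was not tested. The libraries also share time groups and periods, so these values only describe likeness.

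Of 19 other basic leucine zipper genes that were listed, 15 were tested. In the fit without the title period Jdp2, a repressor that pairs with Jun, was lower at the early than at the late times (-2.05 ± 0.20). So was Atf1 (-0.45 ± 0.15). Nfe2l2, the regulator of oxidative stress genes, was higher at the early times (0.72 ± 0.14), as was Cebpb (0.64 ± 0.22), 3 being higher and 2 lower in all, against 15.3% of all genes called. Of 17 kinases and factors upstream of AP-1, 3 were called in that comparison, a share near that of all genes. They were Map2k4 (0.46 ± 0.13), Rps6ka3 (0.44 ± 0.15) and Elk3 (-0.68 ± 0.17).

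Of 12 genes known as targets of AP-1, matrix proteases among them, 7 changed across the times other than 0 h and 24 h, against 9.21% of all genes. Mmp3, the protease stromelysin, was at 8.84 ± 1.1 CPM (SD, n = 3) at 0 h, 32.7 ± 16.3 at 3 h and 466.8 ± 217.2 at 12 h, and it rose by 3.85 ± 0.75 (SE, log2 scale) from 3 h to 12 h. The cytokine gene Lif rose by 2.38 ± 0.51 over the same hours, from 10.7 ± 5.94 CPM to 54.4 ± 19.6 CPM. Mmp10, at 0 in 4 of the 30 libraries and at most 4.985 CPM, was the third target that rose then. Of all genes 0.616% were called between 3 h and 12 h. From 7 d to 21 d Mmp3 fell by 4.72 (SE 0.75), Lif by 2.65 (SE 0.47) and Mmp9 by 1.94 (SE 0.47), where 1.46% of all genes were called. A link between these targets and the members was not tested. Between early and late times 4 of the 12 were higher, led by Mmp3 (1.34 ± 0.38) and Lif (1.13 ± 0.27), and 4 were lower, led by Mmp9 (-4.37 ± 0.32) and Mmp10 (-2.48 ± 0.69). Of all genes 15.3% were called in that comparison. Of 4 heat shock genes, which mark stress of handling as well as injury, 2 were higher at the early times, against the same 15.3%. They were Hspa1a (0.46 ± 0.16) and Hsph1 (0.60 ± 0.14). The sum of the 4 was 625.5 to 889.9 CPM at 0 h and 510.4 to 709.2 at 21 d.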

How the data were processed

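RNA was sequenced as 65-base single-end reads. The authors mapped reads with Bowtie to Ensembl v75 mouse genes (build mm10) and deposited, for each library, the expected counts and the TPM of RSEM 1.2.3. The average TPM per time point that they also deposited were not used. Expected counts, 78.1% of them whole, were rounded and tested with edgeR 4.0.16 in R 4.3.3 (TMM, filterByExpr, quasi-likelihood, Benjamini-Hochberg over 13793 genes, threshold 0.05), with all 30 libraries in a single fit without covariates. The SE of a log2 fold change is its size over the square root of F. The step was tested on simulated data.

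Members and lists were chosen with earlier results of these data known. Genes named from lists were those called between early and late times, or the 2 highest and the 2 lowest. Alternatives were DESeq2 1.42.0, limma 3.58.1 on log2(TPM + 1) and log2(TPM + 0.1), other filters, title period as a covariate, no left-foot libraries and each library left out, and 2 were added after the data were seen.

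Replicates were numbered in accession order. The study's methods give 30 mice, 3 at each time and 6 at 7 d, so each library was taken as a separate mouse, although 4 of 25 distinct tags in the titles recur at several times. Of these tags, 1 recurs with the same date, in 0 h replicate 3 and 12 h replicate 2. Over 39 pairs within a time, counts differed by a chi-square of 9.83 to 94.7 per degree of freedom. Libraries of different times were not compared in this way, so the pairs that share a tag were not examined. Positions are of GENCODE M21, promoters of RefSeq.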

Additional observations from a re-analysis of the deposited data

Results flagged for a closer look

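Over the 10 members at 7 d, the only time with more than 3 libraries, 1 library stood apart from the other 5. Egr1 was at 96.5 CPM in 7 d replicate 5, the highest of 6, and between 33.4 and 53.1 CPM in the others. Its gap to the next library was 0.688 of the whole range, above Dixon's 95% critical value of 0.625, and chance alone flags about 1 in 20 such groups, of which 10 were looked at. Without this library the change of Egr1 over the times other than 0 h and 24 h was called (edgeR adjusted p = 0.0216), and with it the adjusted p was 0.0571.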

How the results depend on the processing

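The count of members called was compared under 8 other settings (9 for 21 d against 7 d) and with each library left out. For 12 h against 3 h it was 1 in all of them, and over all genes 85 became 275 with DESeq2, 207 with the period covariate, 159 and 175 with limma (TPM + 1 and TPM + 0.1) and 7 to 203 without 1 library. For 21 d against 7 d the 3 members became 1 without the left-foot libraries and 1 with limma on TPM + 0.1, and ranged from 0 to 3 without 1 library. The 201 genes became 404 with DESeq2, 564 with the covariate, 130 and 105 with limma, 703 without the earlier libraries of 7 d and 45 to 222 without 1 library. For 3 h against 0 h, leaving out 1 library gave 0 to 3 members. Across the 7 times the 6 members became 3 with limma at either pseudocount, and the 1271 genes became 2365 with DESeq2. Between early and late times the 3 members became 1 with the covariate. The cause was not tested.

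The differences that reversed under these settings were not called ones, apart from the within-period values of Fosb and Jun given with the early and late times. With the covariate the early to late difference was -0.27 for Atf3, -0.24 for Egr1, 0.11 for Ier2 and 0.10 for Junb. Without the earlier libraries of 7 d, the 21 d difference was -0.05 for Fosl2, -0.19 for Ier2, -0.15 for Junb and -0.23 for Jund. With limma it was -0.05 for Fosl2, and Egr1 was at 0.00 for 12 h against 3 h. Without 1 library, 12 h against 3 h ran from -0.55 to 0.17 for Egr1, early against late from -0.07 to 0.17 for Egr1, and 21 d against 7 d from -0.30 to 1.0 for Fosl1, -0.03 to 0.09 for Fosl2, -0.04 to 0.24 for Junb and -0.08 to 0.42 for Jund. Differences from 0 h that were not called changed sign too. Among them, Jund at 3 h ran from -0.53 to 0.41 under the settings that kept single libraries in. Without 1 library, Atf3 at 3 h ran from -0.97 to 1.21 and Fosl1 at 12 h from -0.17 to 1.91. No paired analysis was run because the libraries were taken as separate mice and the labels give no replicate numbers that the groups share. Depth limits Fosl1 and Atf3, with median counts of 44 and 40.5 per library.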
